A study of Mus musculus with 8 samples.

Results

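MHC class II-low border macrophages are described here as 272 cells among 46314 brain cells that carried 1 hashtag. They were chosen by their own counts: at least 5 unique molecular identifiers (UMIs) of C1qa, C1qb and C1qc together, at least 1 of Mrc1, Pf4 and Stab1 detected, and H2-Aa, H2-Ab1 and H2-Eb1 together under 0.2% of the UMIs of the cell. Fewer than 2 of the microglial genes P2ry12, Tmem119 and Sall1 could be detected, and the B cell gene Cd79a had to be at 0. Among WT libraries, the control one held 40 such cells, the acute colitis one 58, the chronic colitis one 14 and the food allergy one 27. Among AppNL-G-F libraries the numbers were 30, 63, 25 and 15 in the same order. The same gate with MHC class II at or above 0.2% held 1342 cells, called MHC class II-high border macrophages, and 58 cells with at least 2 of the 3 microglial genes were counted as microglia.

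The study asked how intestinal inflammation affects brain immune cells with and without amyloid pathology. AppNL-G-F mice carry a humanized amyloid-beta sequence with the Swedish, Arctic and Iberian mutations, knocked into the mouse App gene, so App is under its own promoter, and WT mice served as the other genotype. Controls drank plain water, and the others received dextran sulfate sodium (DSS) or ovalbumin. In acute colitis 2% DSS was given once over 7 days, in chronic colitis 3 times over 5 days each with water in between, and in food allergy mice were sensitized 3 times and then fed ovalbumin on 7 days. WT mice were of strain C57BL/6J, and all mice were 16 weeks old by the sample labels. After an injection of anti-CD45 antibody into the blood and perfusion, CD45.2-positive brain cells were stained with 1 of 4 hashtag antibodies per sample, sorted, and sequenced as 5′ single-cell libraries (10x Genomics), in which each UMI marks a captured transcript. The counts do not show which cells the injected antibody had labelled.

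Each condition was 1 library, so condition and library cannot be told apart within a genotype. The hashtag group, a separately stained sample within a library, is the unit of comparison between conditions. The sources used here do not tie a hashtag to a mouse, so groups are not called mice, and p-values over them measure the spread between stained samples. In AppNL-G-F chronic colitis the hashtag groups outnumber the mice given by the study, so some may share an animal, and p-values with those groups can be too small. A library held between 26988646 and 56307389 UMIs over all barcodes. In T cells, 10 immediate-early genes that cells induce within minutes of a stimulus separated 14 hashtag groups with 727 to 1726 CPM (UMIs scaled to a common total of 1e6) from 16 groups with 3184 to 6702 CPM. Both sets, called low and high, occurred in every library. Cells with fibroblast markers numbered 239 in the high set and 2 in the low set.

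Macrophages at the borders of the brain live in the meninges, around vessels and in the choroid plexus. They take up debris and proteins from the fluid around the brain, and several of their surface proteins, such as Mrc1 (a mannose receptor) and Stab1 (stabilin 1), are endocytic receptors. Part of them show little MHC class II, the molecule that presents antigen to CD4 T cells, and such cells are often marked by the hyaluronan receptor Lyve1 and the folate receptor Folr2, whereas monocytes that enter from blood carry Ly6c2, Ccr2 and Plac8.

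The gate itself required C1q genes and 1 of Mrc1, Pf4 and Stab1, so their shares are a description. C1qa, a subunit of complement C1q and part of the gate, had a UMI in 97.4% of members. The 10641 T cells used as a background were defined by CD3 genes with C1q and Cd79a at 0. Mrc1 was detected in 87.5% of members, Stab1 in 77.2% and the chemokine Pf4 in 81.3%, against at most 0.36% of T cells. Cbr2, a carbonyl reductase that the gate did not use, was found in 76.1% of members and 0.226% of T cells. All 5 of C1qa, Mrc1, Pf4, Cbr2 and Stab1 were detected in 150 members, 4 of them in 56, 3 in 39, 2 in 23 and 1 in 4. The receptor Csf1r, which macrophages need to survive, had a UMI in 84.2% of members and 1.34% of T cells, at medians of 2937.5 UMIs per member and of 2675.5 to 3515.5 per T cell in the 8 libraries. Cbr2 and Csf1r are the markers among these that the gate did not use.

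MHC class II was near the detection limit in most members. The 3 class II genes had no UMI in 135 members, and their median share was 0.0117% against 2.86% in the MHC class II-high cells. The highest member stood at 0.194% and the lowest MHC class II-high cell at 0.201%. Within 0.1% to 0.2% lay 61 members, and 48 of the other cells lay between 0.2% and 0.4%. At the C1q limit, 13 members had exactly 5 UMIs and 16 cells outside had 4. A further 81 cells met all conditions except that none of Mrc1, Pf4 and Stab1 was detected.

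Transcripts of other lineages were present in part of the members. In 22 members the neutrophil genes S100a8, S100a9, Retnlg, Ly6g and Mmp8 took 2.63% to 34.3% of all UMIs, with a median of 24.9%, and the next member had 0.877%. These 22 cells had a median of 13102.5 UMIs against 2617.5 in the others and held 26.8% of all member UMIs. The second hashtag reached a median of 11.6% of the first in them and 4.96% in the others. The WT food allergy library held 10 of the 22 cells and the AppNL-G-F acute colitis library 7. Of the others 2 were WT chronic colitis cells, and WT acute colitis, AppNL-G-F control and AppNL-G-F chronic colitis had 1 each. Counting 17 markers of T, B and NK cells and neutrophils, 105 members had at least 2 UMIs and 167 had fewer. No doublet caller was run, since cells with 1 dominant hashtag had already been selected, and part of the results are therefore given with and without these cells.

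**Figure D1:**
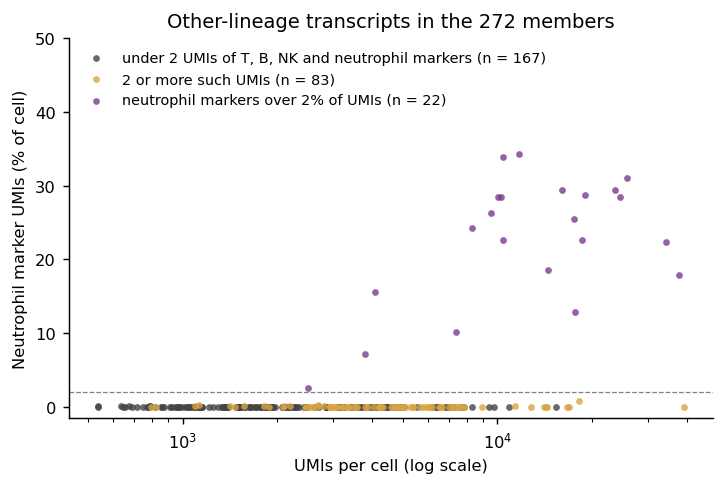
Share of UMIs from 5 neutrophil genes (vertical axis, percent) against UMIs per cell (horizontal axis, log scale) in the 272 members, 1 point per cell. The 22 cells above the dashed line at 2% lie mostly to the right, with a median of 13102.5 UMIs, and the 167 cells with fewer than 2 UMIs of other lineages lie along the bottom.

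The most abundant transcripts reflected both contents. Apoe, the lipid carrier made by macrophages and glia, was detected in 267 members and came to 14219 CPM in all members and 26490 CPM in the 167 without other lineages, against 51.1 CPM in T cells. Lyz2 (lysozyme) came to 8846 and 10740 CPM, the protease inhibitor Cst3 to 4205 and 7053 CPM, and the ferritin chains Fth1 and Ftl1 to 6319 and 5722 CPM in all members. S100a9, an alarmin of neutrophils, stood at 34184 CPM in all members but at 26.4 CPM in the 167, its UMIs came from 63 members, and T cells held 4700 CPM of it. The neutrophil granule genes Ngp, Camp and Lcn2 stood at 5931 to 10261 CPM in all members and at 8.81 to 17.6 CPM in the 167. Tmsb4x, Actb, Malat1, Fau, S100a8 and the ribosomal RNA-linked Gm42418 completed the 15 highest genes.

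The gate also limited microglial genes in members. Of the 3 genes that the gate used, the purinergic receptor P2ry12 stood at 34.1 CPM in members and 607 CPM in the 58 microglia, Tmem119 stood at 11.1 and 497 CPM, and Sall1, a transcription factor of microglia, had 0 UMIs in members. Over the 10 microglial markers, 188 members had at least 2 UMIs and 3 had more than 1% of their UMIs. Of the markers outside the gate, Fcrls stood at 399 CPM in members and 521 CPM in microglia, and the fractalkine receptor Cx3cr1 at 149 and 1023 CPM. Fewer than 3 libraries held 10 microglia, and no test was run between the 2 cell types.

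Members were a small share of the sorted cells and their number differed between the sets of hashtag groups. In the high set they were 238 of 30014 cells (0.793%, exact 95% binomial interval 0.696 to 0.900%), and in the low set 34 of 16300 cells (0.209%, 0.144 to 0.291%). MHC class II-high cells made up 4.36% of the high and 0.196% of the low set, so that 238 members stood beside 1310 of them in the high set and 34 beside 32 in the low set. The intervals cover counting error only, and no test was made between the sets, which were defined from these data.

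**Figure D2:**
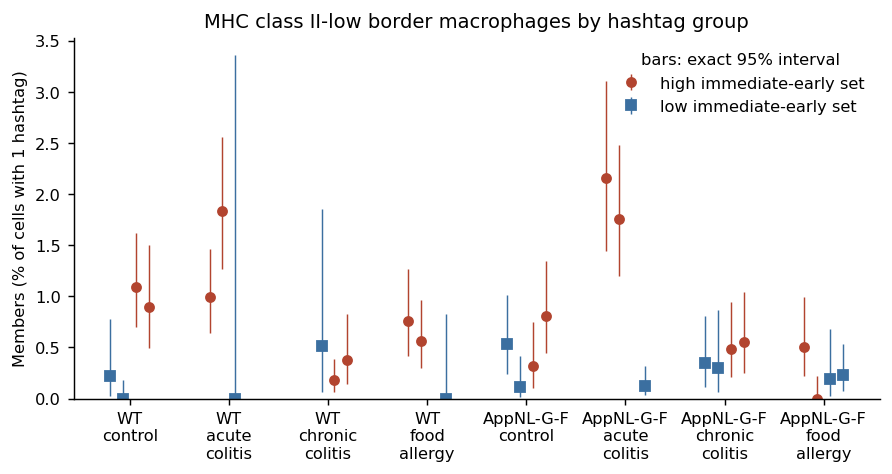
Members as percent of cells with 1 hashtag (vertical axis) in each hashtag group of at least 100 cells, by library (horizontal axis), with exact 95% binomial intervals as bars; circles are the high and squares the low immediate-early set. The 3 highest values, 1.75% to 2.16%, belong to acute colitis groups of the high set, and low-set groups stay at or below 0.534%.

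Across conditions, the share of members among all cells was highest in acute colitis, but the difference did not exceed the spread between groups. Acute colitis groups of the high set held 0.994% and 1.83% members in WT and 2.16% and 1.75% in AppNL-G-F mice. Control groups of the high set held 1.09% and 0.897% in WT and 0.321% and 0.806% in AppNL-G-F mice, so the groups overlapped. Over both sets the share was 1.14 ± 0.922% (SD, n = 6) in acute colitis and 0.497 ± 0.398% (SD, n = 8) in control, a difference of 0.647 percentage points (two-sided exact permutation test within genotype, p = 0.118, adjusted p = 0.6 over 8 tests of shares). High-set groups alone differed by 0.907 points (exact permutation p = 0.111, n = 4 and 4, where the smallest possible p was 0.0278), and low-set groups by -0.155 points. Chronic colitis (0.394 ± 0.132%, n = 7) and food allergy (0.322 ± 0.294%, n = 7) stood 0.103 and 0.176 points under control in the exact permutation tests (p = 0.529 and 0.351, adjusted p = 0.762 for both).

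The genotypes did not differ beyond the spread. Members were 0.561 ± 0.608% (SD, n = 15) of cells in AppNL-G-F and 0.572 ± 0.538% (n = 13) in WT groups (permutation test within treatment, p = 0.958). As a share of all border macrophages they were 19.6 ± 17% (n = 9) and 15.8 ± 4.91% (n = 8), with p = 0.667 in the permutation test. Against control (26.3 ± 20.1%, n = 5), this share was 18.2 ± 5.03% after acute and 15.2 ± 2.40% after chronic colitis, and 9.50 ± 7.36% in food allergy (n = 4 each), and none of the exact permutation tests passed (p = 0.633, 0.383 and 0.15). AppNL-G-F control hashtag 4, with 9 members among 15 border macrophages (60.0%), weighed on the control mean. Without it, as within the high set, the acute colitis difference changed from -8.04 to 0.397 points and the genotype difference from 3.76 to -1.30 points.

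Next, members were compared with MHC class II-high border macrophages of the same libraries, to see what else differed beside the gated genes. Counts were summed per library and cell kind (8 pairs), the 13 genes of the gate were left out, and 4155 genes were tested with edgeR's quasi-likelihood test at an adjusted p under 0.05. In members 107 genes were higher (2.58% of those tested) and 153 lower (3.68%), 6.26% in all. The cells were gated in these same counts, so genes that accompany MHC class II are a description rather than an independent result. Of the gene lists used below, chosen with earlier results known, only the counts and medians are given, beside a median log2 difference of 0.03 over all genes tested.

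Genes of resident perivascular and leptomeningeal macrophages were the list with the most higher calls. Of 18 genes 15 were tested, 10 were higher and 1 was lower, with a median log2 difference of 1.04. Lyve1 ranged from 123 to 492 CPM with a median of 213 in members and from 3.41 to 94.4 CPM with a median of 48.9 in MHC class II-high cells. Every library was higher in members, and the 2 ranges did not overlap. The log2 difference was 2.58 ± 0.44 (SE, edgeR adjusted p = 0.00842), and a Lyve1 UMI was found in 33.1% of members, 9.61% of MHC class II-high cells and 0.0188% of T cells.

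Folr2 ranged from 52.7 to 422 CPM (median 188) in members and from 5.46 to 159 CPM (median 28.5) in MHC class II-high cells, higher in all 8 libraries although the ranges overlapped (log2 difference 1.81 ± 0.31, adjusted p = 0.00344). Cd163, the receptor for haemoglobin bound to haptoglobin, ranged from 94.8 to 644 CPM against 65.5 to 207 CPM (1.22 ± 0.17, adjusted p = 6.48e-05). In 6 to 8 of the 8 libraries, the coagulation factor gene F13a1 (0.96 ± 0.12), the bridging ligand Gas6, which links dying cells to TAM receptors (1.10 ± 0.20), the eosinophil chemokine Ccl24 (1.53 ± 0.27), the lectin Cd209f (1.04 ± 0.29), the ectoenzyme Cd38 (1.06 ± 0.21), Cbr2 (0.79 ± 0.14) and the transcription factor Maf (0.52 ± 0.14) were higher as well. Without the cells over 2% neutrophil transcripts 13 of 16 tested genes of the list were higher and 0 lower.

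The rule named other genes as higher, each in every library, which belong to none of the gene lists. Gpx3, an extracellular glutathione peroxidase, ranged from 27.4 to 602 CPM in members and from 13.1 to 60.8 CPM in MHC class II-high cells (log2 difference 2.26 ± 0.33). Ltc4s, which makes leukotriene C4, ranged from 84.3 to 556 CPM against 25.2 to 208 CPM (1.49 ± 0.18), and Mgst1, a microsomal glutathione transferase, from 46.9 to 485 CPM against 9.88 to 149 CPM (1.73 ± 0.27). Each of these genes was higher in 8 of 8 libraries, and each pair of ranges overlapped.

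Ccn1, a matricellular protein, had the largest log2 difference among the named higher genes, 2.88 ± 0.34, with 9.13 to 281 CPM in members and 0 to 58.3 CPM in MHC class II-high cells. The membrane protein gene Pmp22 (1.53 ± 0.19), the protease inhibitor Ctla2a (1.29 ± 0.22) and the membrane protein gene Ckap4 (1.47 ± 0.27) were also named. F630028O10Rik (1.47 ± 0.24) is an antisense RNA gene of chromosome X (96239926 to 96243636, plus strand, GRCm38), whose reads cannot be told apart from those of an overlapping gene unless strand was used. The lysosomal proteases Ctsd and Ctsl were higher by 1.25 ± 0.22 and 1.09 ± 0.15. Ckap4 did not pass the low-count filter without the cells over 2% neutrophil transcripts, and the other named genes remained called.

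**Figure D3:**
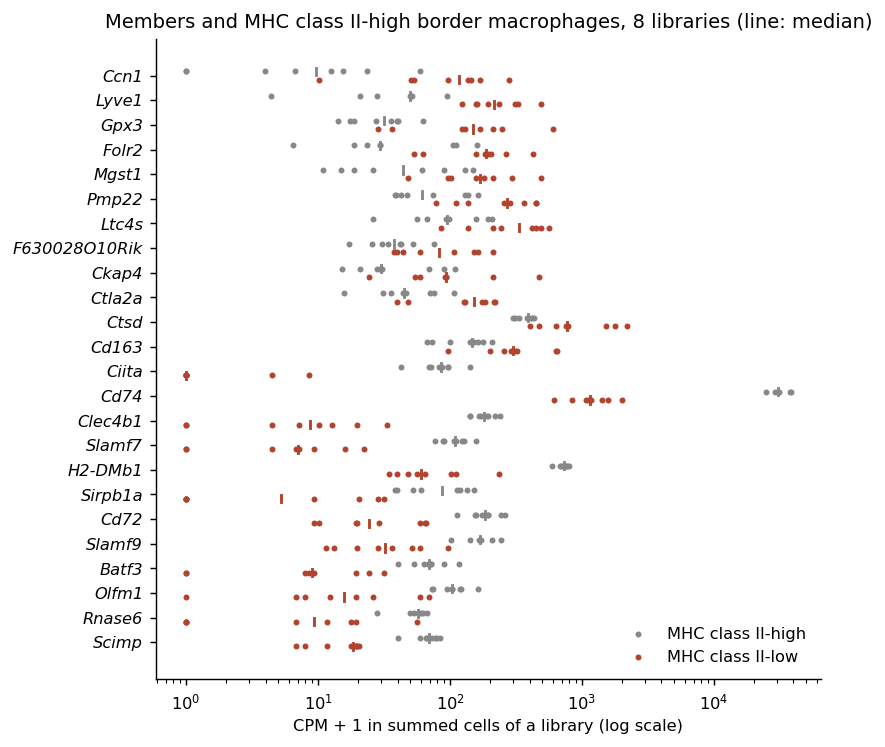
CPM + 1 (horizontal axis, log scale) of the 24 genes named by rule (vertical axis) in summed members (red) and summed MHC class II-high cells (grey), 1 point per library and a line at the median. Lyve1 stands apart between the 2 kinds of cell without overlap, as do Ciita, Cd74, Clec4b1 and Slamf7 in the opposite direction.

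Genes that work with MHC class II were lower. Of 16 accessory genes 10 were tested, 0 were higher and 6 were lower, with a median log2 difference of -1.63. Ciita, the transactivator of class II genes, ranged from 0 to 7.48 CPM in members and from 41.5 to 140 CPM in MHC class II-high cells, and its fitted difference of -5.02 ± 0.42 rests on libraries at 0. The invariant chain Cd74 ranged from 609 to 2012 CPM against 24584 to 38071 CPM (-4.78 ± 0.20), and the peptide-loading genes H2-DMa and H2-DMb1 differed by -2.28 ± 0.17 and -3.41 ± 0.22. None of these ranges overlapped. The gate itself selected on H2-Aa, H2-Ab1 and H2-Eb1.

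The rule also named lower genes outside the class II pathway. Clec4b1, a C-type lectin, ranged from 0 to 32.0 CPM in members and from 140 to 238 CPM in MHC class II-high cells (log2 difference -4.05 ± 0.31). Slamf7 (-3.69 ± 0.31), Slamf9 (-2.44 ± 0.23), the inhibitory receptor Cd72 (-2.54 ± 0.26), Sirpb1a (-3.31 ± 0.43) and the adaptor Scimp (-2.29 ± 0.27) followed, with no overlap of the ranges. The transcription factor Batf3 (-2.36 ± 0.34), Olfm1 (-2.33 ± 0.29) and the ribonuclease Rnase6 (-2.31 ± 0.48) were the other named genes. Of 11 chemokines tested 4 were lower and 1 higher. Cxcl16 ranged from 9.13 to 111 CPM against 140 to 306 CPM (-2.07 ± 0.18), and Ccl3, Ccl6 and Ccl9 differed by -1.08, -0.69 and -0.82 (Ccl6 with an edgeR adjusted p of 0.0495, and 0.109 without the members over 2% neutrophil transcripts).

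Of 14 scavenger and endocytic receptors tested, 2 were higher, Cd163 and Lyve1, and 2 were lower. Mgl2, a galactose-type lectin, ranged from 18.3 to 381 CPM in members and 457 to 902 CPM in MHC class II-high cells (log2 difference -2.23 ± 0.29), and the inhibitory Fc receptor Fcgr2b differed by -0.71 ± 0.17. Without the members that held 2 or more UMIs of other lineages their adjusted p was 0.0546 and 0.736, and 6 of the list were higher and 0 lower. In the complement list C4b (1.06 ± 0.22) was among the 2 higher of 7 tested, and 0 were lower. Ceruloplasmin, Cp, a copper-bearing ferroxidase, was higher by 1.17 ± 0.26 and Fth1 lower by -0.61 ± 0.13. Csf1r (0.03 ± 0.13, adjusted p = 0.955) and Apoe (-0.05 ± 0.12, adjusted p = 0.874) did not pass the test.

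Members had lower values in 2 stimulus-driven lists. Of 12 interferon-stimulated genes tested 4 were lower and 0 higher, with a median of -0.72. Isg15 ranged from 9.13 to 126 CPM against 89.6 to 258 CPM (-1.35 ± 0.23), and Irf7 differed by -1.08 ± 0.20. Of 10 immediate-early genes 6 were lower and 0 higher, with a median of -0.62; Jun (-0.64 ± 0.15) and Dusp1 (-0.76 ± 0.14) were among them. Without the members that held 2 or more UMIs of other lineages, 1 of the 10 immediate-early genes (Dusp1) and 2 of 11 interferon-stimulated genes were lower. The low set, defined by the immediate-early genes in T cells, held 34 members and 32 MHC class II-high cells. The high set held 238 and 1310. Sums per library mixed both sets, and the part of this in the immediate-early difference was not tested. In the remaining lists, monocyte genes had 2 higher, among them Chil3, and 2 lower (Ccr2, Cd209a) of 12, class I and immunoproteasome genes 0 and 2 of 11, heat-shock chaperones 0 and 1 of 10, cytokines 0 and 1 of 10, transcription factors and growth factor receptors 0 and 1 of 17, adhesion genes 1 and 1 of 13, alternative activation genes 1 and 2 of 7, cell-cycle genes 0 and 0 of 7, and App with its processing enzymes 0 and 0 of 12.

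Leaving out each library gave between 199 and 273 called genes, the fewest without AppNL-G-F acute colitis. Without the 22 cells over 2% neutrophil transcripts 63 of the 88 higher genes that could still be tested and 130 of 149 lower genes were called, and Chil3 was no longer among them. Without cells of either kind that held 2 or more UMIs of other lineages, 43 of 74 higher and 75 of 147 lower genes tested were called. Of the genes tested there, 73 and 145 kept their sign. That fit called 110 genes higher and 207 lower. With each cell thinned to 1500 UMIs, 61 genes were higher and 60 lower, and 30 of 36 higher genes tested and 50 of 94 lower genes tested remained called.

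Members varied among themselves in Lyve1. A Lyve1 UMI was detected in 90 members and not in 182, and in cells thinned to 1500 UMIs it was found in 55 of 210 (26.2%). In the WT libraries a UMI was present in 13 of 40 control, 22 of 58 acute colitis, 7 of 14 chronic colitis and 4 of 27 food allergy members. In the AppNL-G-F libraries it was present in 8 of 30, 22 of 63, 8 of 25 and 6 of 15, in the same order. In the 3 libraries with at least 10 cells of each kind, 0 of 1426 genes differed (0.0% called) by edgeR's quasi-likelihood test, where 81 had an unadjusted p under 0.05, and DESeq2 also called 0. Without the cells over 2% neutrophil transcripts 11 genes were called, and leaving out WT control, WT acute colitis or AppNL-G-F acute colitis gave 2, 1 and 9 calls.

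Members were then compared between acute colitis and control, over hashtag groups with at least 10 members. This left 4 acute colitis groups and 3 control groups among 9 groups in the fit, all of the high immediate-early set, and 2704 genes were tested. The acute colitis groups carried hashtag 4 or 5 and the control groups hashtag 6 or 7, as in the high-set shares above. Hashtag number and treatment therefore cannot be told apart in this contrast. In acute colitis 40 genes were higher (1.48% of those tested) and 28 lower (1.04%), 2.51% in all, by edgeR at an adjusted p under 0.05. DESeq2 gave 18 higher and 27 lower, so the share of higher genes among the calls was 58.8% in edgeR and 40% in DESeq2. Sums over whole libraries, with 2 libraries per treatment, gave 0 calls in edgeR, with 158 genes at an unadjusted p under 0.05, and library sums of the members without other lineages gave 22 higher and 33 lower. In each group, fewer cells of a kind and less RNA per cell cannot be told apart.

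About as many resident macrophage genes rose as did not pass in acute colitis. Of 15 tested genes 7 were higher and 0 lower, with a median log2 difference of 1.54 against 0.06 over all genes. Folr2 stood at 275 and 513 CPM in the WT acute colitis groups and 249 and 293 CPM in the AppNL-G-F ones, and at 67.2, 59.6 and 45.0 CPM in the 3 control groups. All 4 acute colitis groups lay above the 3 control groups (log2 difference 2.66 ± 0.47, edgeR adjusted p = 0.00651).

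Cd209f stood at 718, 513, 213 and 384 CPM in the acute colitis groups (WT hashtags 4 and 5, then AppNL-G-F hashtags 4 and 5) and at 9.60, 59.6 and 60.0 CPM in control (3.44 ± 0.51, adjusted p = 0.00143). The chemokine Ccl24 stood at 519, 123, 225 and 299 CPM against 28.8, 0 and 45.0 CPM (3.27 ± 0.65, adjusted p = 0.0139), and the growth factor Igf1 at 596, 484, 379 and 280 CPM against 86.4, 0 and 120 CPM (2.41 ± 0.50, adjusted p = 0.0155). The 4 and 3 groups did not overlap for these genes, but the control group of 9 members lay within or above the acute colitis range of Cd209f, Ccl24 and Igf1, at 301 CPM of Cd209f and 451 CPM of Igf1, as did the one of 5 members for Igf1 (282 CPM). Cbr2 (1.73 ± 0.33), Ms4a7 (1.97 ± 0.40) and Gas6 (1.70 ± 0.42) were the other 3 genes of the list that rose. In the fit of 18 groups with at least 5 members Igf1, Ms4a7 and Gas6 did not pass (adjusted p = 0.0502, 0.123 and 0.128). Lyve1 (0.93 ± 0.53, adjusted p = 0.355) and Cd163 (0.48 ± 0.41, adjusted p = 0.554) did not pass the test.

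Some genes of uptake and of macrophage growth were higher too. Csf1r stood at 2566, 1681, 1290 and 1053 CPM in acute colitis and 595, 696 and 570 CPM in control (log2 difference 1.44 ± 0.30, adjusted p = 0.014), and the transcription factor Mef2c rose by 2.35 ± 0.42. Of 15 scavenger receptors tested the fatty acid transporter Cd36 (2.55 ± 0.64) and the endocytic adaptor Dab2 (2.10 ± 0.39) were higher and 0 lower. The lysosomal enzyme gene Hexa (1.35 ± 0.32), the metalloproteinase inhibitor Timp2 (1.83 ± 0.40) and Fcrls (2.87 ± 0.53), on the microglial marker list, rose too. Hexa, Timp2 and Fcrls did not pass in the 18 groups (adjusted p = 0.172, 0.0801 and 0.0792).

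Pla2g2d, a secreted phospholipase A2, had the largest rise among the genes named by rule. It stood at 535, 199, 237 and 234 CPM in the 4 acute colitis groups and at 0 in the 3 control groups, and the 2 smaller control groups were also at 0. Counted over all members, 117 UMIs were found in 57 of 121 acute colitis members and 1 UMI in 70 control members, a ratio of 75.3 (exact 95% interval 13.2 to 2997, counting error only). The fitted log2 difference of 7.73 ± 0.96 (adjusted p = 0.000463) depends on the groups at 0. In MHC class II-high cells of the same libraries Pla2g2d stood at 68.5 CPM in WT and 75.9 CPM in AppNL-G-F acute colitis, and at 0 and 5.64 CPM in the WT and AppNL-G-F control libraries. A UMI of it was found in 23.9% of members and 0.0564% of T cells.

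The other risers named by rule were low in UMIs. Bank1, a scaffold of B cell receptor signalling, stood at 183, 171, 130 and 78.0 CPM in acute colitis and 0, 0 and 15 CPM in control (log2 difference 4.85 ± 0.88). Ccnd1 (4.89 ± 1.07), the cytokine receptor Il21r (4.34 ± 1.02) and the lipid phosphatase Lpin2 (4.32 ± 0.90) had values of 76.4 to 266, 82.9 to 214 and 117 to 260 CPM in acute colitis and 0 to 38.4, 0 to 48.0 and 0 to 67.2 CPM in the 3 control groups. The control group of 9 members stood at 451, 225 and 225 CPM of Ccnd1, Il21r and Lpin2 and at 376 CPM of Bank1, and the one of 5 members at 156 CPM of Ccnd1. In the fit of 18 groups Ccnd1, Il21r and Lpin2 did not pass (adjusted p = 0.166, 0.14 and 0.0632).

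Part of the monocyte genes fell. Of 13 tested monocyte and recruitment genes 5 were lower in acute colitis and 0 higher, with a median log2 difference of -3.06. Plac8 stood at 0 in both WT acute colitis groups, at 82.9 and 189 CPM in the AppNL-G-F ones, and at 451, 557 and 435 CPM in control (-4.94 ± 0.61, adjusted p = 0.000463). Ly6c2 stood at 0, 9.50, 308 and 793 CPM in acute colitis and 1354, 596 and 1111 CPM in control (-3.97 ± 0.65, adjusted p = 0.0107), so the AppNL-G-F hashtag 5 group overlapped with control. Without the members over 2% neutrophil transcripts Ly6c2 had a log2 difference of -5.27 ± 1.81 (adjusted p = 0.252). In the fit of 18 groups Ly6c2 did not pass either (edgeR adjusted p = 0.0706). The calcium-binding protein gene S100a4 (-3.10 ± 0.55) and the aspartic protease Napsa (-3.66 ± 0.54) fell as well, and Ccr2 (-3.06 ± 0.78, adjusted p = 0.0691) did not pass.

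Of 13 chemokines tested 1 rose and 2 fell, with a median log2 difference of 0.80. Ccl6 stood at 229, 238, 178 and 156 CPM in acute colitis and at 1268, 1451 and 1321 CPM in control (log2 difference -2.68 ± 0.29, edgeR adjusted p = 0.00011). The control group of 9 members, outside this fit, lay below all the acute colitis groups for Ccl6. Ccl9 stood at 30.5, 19.0, 47.4 and 32.5 CPM against 259, 278 and 270 CPM (-3.02 ± 0.44, adjusted p = 0.00143), while Ccl24 rose. The acute phase gene Saa3 was found as 40 UMIs in 8 of 70 control members and as 1 UMI in 121 acute colitis members. The ratio was 62.2 for control over acute colitis (exact 95% interval 10.5 to 2517, counting error only). In the control groups of 5 and 9 members Saa3 was at 0. Without the members that held 2 or more UMIs of other lineages, in groups of at least 5, its edgeR adjusted p was 0.0695. Gm9733 (-5.07 ± 0.75) and Ms4a4c (-3.78 ± 0.83) were the other named genes that fell, and the lysosomal precursor Psap fell by 1.12 on the log2 scale. The lectin Lgals3 fell by 2.36, with an adjusted p of 0.00619 in edgeR, and its log2 difference without the members over 2% neutrophil transcripts was -2.96 ± 1.19 (adjusted p = 0.248). Cd74 (-1.25 ± 0.28) and Ifi30 (-1.37 ± 0.34) were the 2 of 8 class II accessory genes that fell, and 0 of 11 cytokines, 10 interferon-stimulated genes or 10 immediate-early genes tested were called. In the fit of 18 groups Cd74, Ifi30, Psap and Ms4a4c did not pass (edgeR adjusted p = 0.242, 0.0993, 0.068 and 0.0507). Gm9733 and Lgals3 passed there (edgeR adjusted p = 0.0232 for both).

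**Figure D4:**
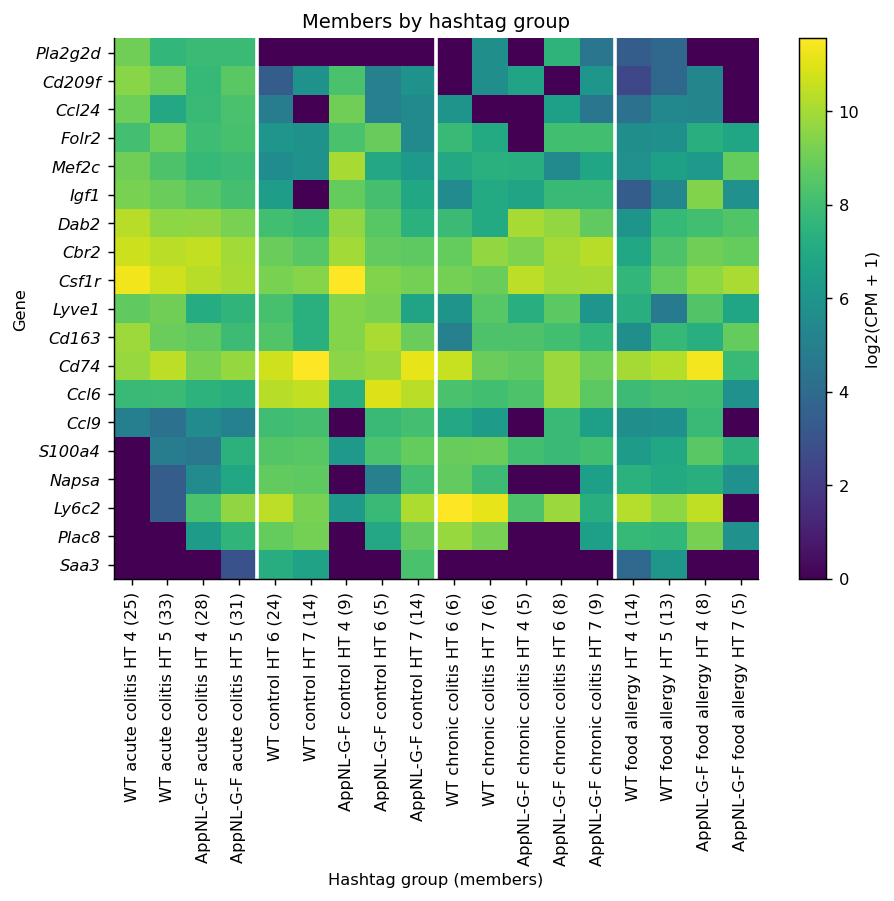
log2(CPM + 1) of 19 genes (vertical axis), chosen for display after their values were seen, in summed members of the 18 hashtag groups with at least 5 members (horizontal axis, number of members in brackets), with white lines between acute colitis, control, chronic colitis and food allergy. Pla2g2d is at 0 in all 5 control groups, while AppNL-G-F control hashtag 4 (9 members) carries Csf1r, Folr2 and Cd209f at levels like those of acute colitis and Plac8 at 0.

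Other measures moved with this contrast. Members over 2% neutrophil transcripts numbered 8 of 117 in acute colitis and 1 of 57 in control groups of the high set, and summed neutrophil markers ranged from 91.6 to 87396 CPM in the 4 acute colitis groups and from 39.8 to 43790 CPM in the 3 control groups. Summed monocyte markers ranged from 0 to 3582 CPM against 2246 to 5743 CPM, summed microglial markers from 1144 to 2128 CPM against 338 to 605 CPM, and AppNL-G-F control hashtag 7 held 7624 CPM of mast cell markers. In the 2 smaller control groups microglial markers came to 5109 and 3222 CPM. Without the members over 2% neutrophil transcripts 124 genes were higher and 111 lower, and 63 of the 67 genes of the first fit that could be tested were called again. WT food allergy hashtag 4 fell from 14 to 6 members and so left that fit. Leaving out this group alone gave 220 calls. The part of the monocyte, microglial and mast cell transcripts in the result was not tested.

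Control groups with fewer members changed the result. Of the 68 called genes, 60 did not overlap between the 4 acute colitis and 3 control groups, as was the case for 17.5% of all genes tested. Once the control groups with 5 and 9 members were included, only 8 of the 60 still did not overlap. The share over all genes tested was not computed with these 2 groups included. AppNL-G-F control hashtag 4, with 9 members of the low set, stood at 3005 CPM of Csf1r, 301 CPM of Folr2, 301 CPM of Cd209f and 2780 CPM of Ms4a7, with Plac8 at 0 and Ly6c2 at 75.1 CPM. In a fit of the 18 groups with at least 5 members, with the immediate-early set as a covariate, 16 genes were higher (0.948% of 1688 tested) and 12 lower (0.711%). All 65 genes of the first fit that were tested there kept their sign and 22 were called, among them Pla2g2d, Cd209f, Ccl24, Cbr2, Dab2, Mef2c, Ccl6, Ccl9, Plac8, S100a4 and Napsa. The 4 acute colitis and 3 control groups of the first fit are also in this one, so the kept signs are not independent. Leaving out AppNL-G-F control hashtag 4 gave 57 higher and 58 lower genes, leaving out WT acute colitis hashtag 4 gave 8 calls, and leaving out the covariate gave 3 and 2. Folr2 (1.51 ± 0.50, adjusted p = 0.117) and Csf1r (1.28, adjusted p = 0.0502) did not pass in the 18 groups. Without the members that held 2 or more UMIs of other lineages, groups of at least 5 gave 39 higher and 36 lower genes among 1046 tested. In that fit Ccl24, Cbr2 and Napsa did not pass (edgeR adjusted p = 0.136, 0.0772 and 0.15). Pla2g2d, Cd209f, Dab2, Mef2c, Ccl6, Plac8 and S100a4 passed, as did Folr2 and Fcrls (edgeR adjusted p = 0.0247 and 0.00083).

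Single groups also moved the count in the first fit, in which leaving out each hashtag group in turn gave between 25 and 220 calls. The lowest count came without AppNL-G-F acute colitis hashtag 4. WT food allergy hashtags 4 and 5 were not in the contrast but entered the low-count filter, the normalization and the estimate of spread. They held 8 and 2 of the cells over 2% neutrophil transcripts. Without hashtag 4 or 5 of this library 220 and 189 genes were called, among 2322 and 2943 tested. Without WT acute colitis hashtag 4 or 5 the counts of called genes were 45 and 43. With each cell thinned to 1500 UMIs, 35 genes were higher and 24 lower among 677 tested. Plac8, Ly6c2, Ccl24, Mef2c and Gas6 did not pass (edgeR adjusted p = 0.0686, 0.0968, 0.145, 0.103 and 0.08). Hexa, Cd74, Ifi30, Lgals3 and Psap did not pass either (0.0927, 0.117, 0.124, 0.0553 and 0.104). Pla2g2d, Folr2, Cd209f, Igf1, Cbr2, Ms4a7, Dab2, Csf1r, Fcrls, Timp2 and Ccl6 were called again.

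The acute colitis difference was also compared between genotypes, and 9 genes passed (5 higher in AppNL-G-F, 0.185% of those tested, and 4 lower, 0.148%). The AppNL-G-F control arm was 1 group, hashtag 7 with 14 members, which held 7624 CPM of mast cell and 43790 CPM of neutrophil markers and was assumed to vary like the other groups, so these values compare against 1 sample. Plac8 fell to 0 in WT and to 82.9 and 189 CPM in AppNL-G-F acute colitis, with an interaction of 6.95 ± 1.39 on the log2 scale (edgeR adjusted p = 0.0433), fitted against groups at 0. Without the members over 2% neutrophil transcripts the interaction was 5.90 ± 2.53 (adjusted p = 0.571). Lgals3 stood at 45.8 and 76.0 CPM in WT and 438 and 819 CPM in AppNL-G-F acute colitis (4.19 ± 0.84, adjusted p = 0.0433), and the interaction without those members was 3.78 ± 2.48 (adjusted p = 0.75). Leaving out single groups gave 1 to 33 calls, with 1 without WT control hashtag 6 or AppNL-G-F acute colitis hashtag 5 and 33 without WT food allergy hashtag 4. Of the other 7 genes, named although outside the rule, Hopx, Nkg7 and Ccl5 are genes of lymphocytes and were higher, and Ccl7, Mcpt4, Rps28 and Rps29 were lower.

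Per cell, monocyte and resident transcripts were counted after thinning to 1500 UMIs, which kept 210 members. At least 2 UMIs of the 6 monocyte markers were found in 0 of 45 members of WT acute colitis and 11 of 29 of WT control. In AppNL-G-F mice they were found in 11 of 50 members of acute colitis and 5 of 19 of control. Without the members over 2% neutrophil transcripts the AppNL-G-F numbers were 5 of 43 and 4 of 18. Within the high set 10 of 91 acute colitis members, 15 of 41 controls, 6 of 23 chronic colitis and 13 of 29 food allergy members were positive, and before thinning 12%, 31.6%, 31.0% and 42.9%. In food allergy 3 of 19 members remained positive once members over 2% neutrophil transcripts were left out. The 18 resident genes took a median of 0.942% of UMIs in high-set acute colitis members and 0.549% in controls. They took 0.404% in chronic colitis, 0.257% in food allergy, and 0.872% in the low-set controls. These are descriptions over cells, with no test.

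**Figure D5:**
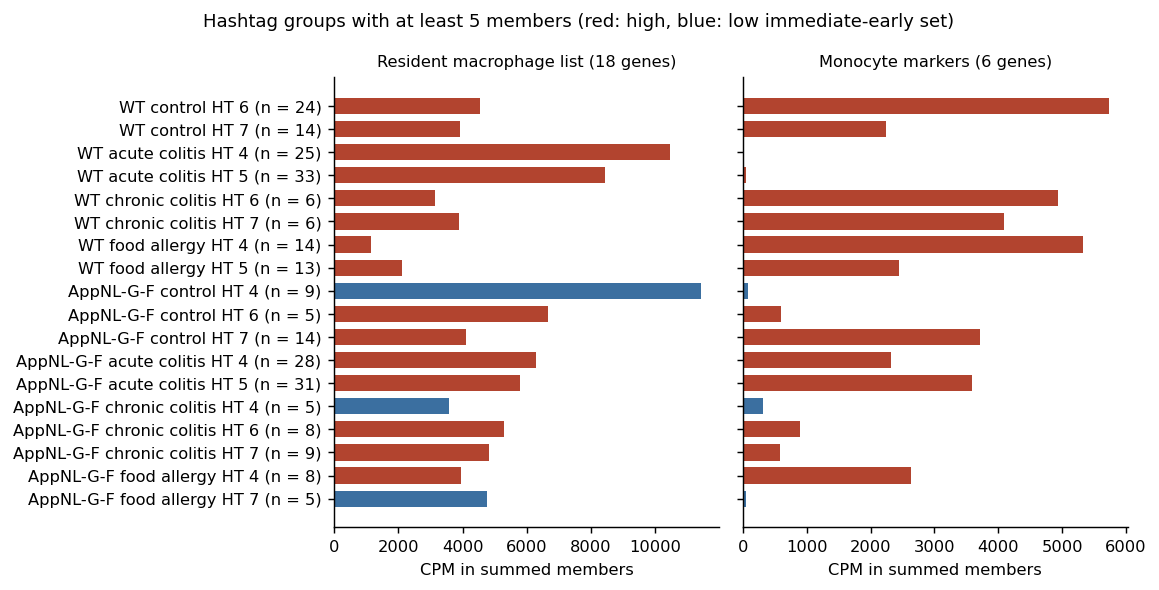
Summed CPM (horizontal axes) of the resident macrophage list (left) and of the 6 monocyte markers (right) in members of each hashtag group with at least 5 members (vertical axis, number of members in brackets), red for the high and blue for the low immediate-early set. WT acute colitis groups combine 8426 and 10462 CPM of resident genes with at most 47.5 CPM of monocyte markers, and AppNL-G-F control hashtag 4 shows a like pattern with 11421 and 75.1 CPM.

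For the other conditions fewer groups reached 10 members, and the 18 groups with at least 5 were used, with the immediate-early set as a covariate. Chronic colitis had 0 genes higher and 4 lower than control (0.237% of 1688 tested), and 181 had an unadjusted p under 0.05. Ccl6 stood at 299, 264, 315, 897 and 403 CPM in the 5 chronic colitis groups and at 1268, 1451, 150, 1971 and 1321 CPM in the 5 control groups, which overlapped (log2 difference -1.56, edgeR adjusted p = 0.0433). The interferon-induced membrane gene Ifitm1 (-3.38, adjusted p = 0.0383), the matrix protein Tgfbi (-1.83, adjusted p = 0.0288) and the kinase Pim1 (-2.44, adjusted p = 0.0383) were the other 3. Food allergy had 0 genes higher and 1 lower (0.0592%), with 139 at an unadjusted p under 0.05: Ccl6 at 242, 283, 267 and 56.5 CPM in its 4 groups (-2.14, adjusted p = 0.0231). The 3 comparisons with control share the same control groups.

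Both counts went to 0 when members over 2% neutrophil transcripts were left out, with 137 and 63 genes at an unadjusted p under 0.05. Leaving out single groups gave 0 to 12 calls for chronic colitis, with 12 without AppNL-G-F control hashtag 4, 11 without WT control hashtag 6 and 9 without AppNL-G-F control hashtag 7, and 0 without WT chronic colitis hashtag 6 or 7 or AppNL-G-F chronic colitis hashtag 6. For food allergy they gave 0 to 3, with 3 without WT food allergy hashtag 5 or AppNL-G-F control hashtag 7. DESeq2 called 34 and 19 genes in the 2 comparisons.

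AppNL-G-F and WT members did not differ in any gene in this fit. Of 1688 genes 0 passed (0.0% called) by edgeR, 128 had an unadjusted p under 0.05, and DESeq2 called 0. Resident genes such as Folr2 (0.65 ± 0.43, adjusted p = 0.691) and Cbr2 (0.34 ± 0.27, adjusted p = 0.778) did not pass, nor did Igf1 (1.66 ± 0.43, adjusted p = 0.239). A p that misses the threshold does not show that the genotypes were alike. Simulated data placed changes in the acute colitis groups only, and recovery was scored in acute colitis versus control. There the fit of 18 groups recovered 37.6% of genes changed 2-fold and 89.7% of those changed 4-fold, among 1472 genes tested. The counts were drawn with the same spread for all genes and, apart from depth, without other differences between groups. Recovery for the genotype comparison was not simulated.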

How the data were processed

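Brain CD45.2-positive cells of 8 libraries were analysed from the raw UMI counts that the authors deposited, made with Cell Ranger on mm10 (version 6.1.2 in the submitters' processing notes, another version in the file headers), without normalization and with all barcodes kept. Members and gene lists were chosen with earlier results of these data known. Barcodes with at least 500 UMIs, 200 genes, at most 5% mitochondrial UMIs and a top hashtag of at least 50 counts and 3 times the second were kept. The gate barcodes without 1 hashtag numbered 4 to 20 per library. Libraries shared up to 68 barcode sequences per pair among cells with 1 hashtag and 0 among members.

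Counts were summed per library or hashtag group and tested with edgeR 4.0.16 (TMM, filterByExpr, glmQLFit, glmQLFTest; R 4.3.3, limma 3.58.1) with Benjamini-Hochberg adjustment at 0.05; DESeq2 1.42.0 was an alternative. CPM are UMIs scaled to a total of 1e6 per summed unit. Contrasts between conditions used 1 mean per library, averaged over genotypes; at 10 members per group all groups were in the high set, so the immediate-early covariate could not be included. Fits with at least 5 members, the neutrophil limit of 2%, thinning and library sums were chosen after seeing the data. Shares were compared over hashtag groups of at least 100 cells (and 10 border macrophages) with exact permutation tests or 100000 resamples. Named genes were the 12 largest rises and falls (5 for conditions) among called genes with at least 50 CPM, with 1 sign in all libraries for the first, the 15 most abundant genes, and genes of the lists; gate, ribosomal, mitochondrial, haemoglobin and receptor genes were left out. Genes named beyond this were chosen after their values were seen. On simulated counts the comparison with MHC class II-high cells recovered 47.5% of 2-fold and 100% of 4-fold changes among 4099 genes, and the acute colitis fit 23% and 78.8% among 2487. Python 3.11.15, numpy 2.4.6, scipy 1.17.1, pandas 2.3.3 and matplotlib 3.10.9 were used, with GENCODE vM21 for coordinates.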

Additional observations from a re-analysis of the deposited data

Results flagged for a closer look

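In the comparison with MHC class II-high cells, the AppNL-G-F food allergy library (15 members) stood far from the other 7 in the log2 difference of Gpx3 (5.00, next 2.65) and of Pmp22 (3.39, next 1.95). Across 28 groups of values examined in this way 2 stood out, and chance marks about 1 in 20. The fall of Plac8 in acute colitis differed between genotypes, with an interaction of 6.95 on the log2 scale (edgeR adjusted p = 0.0433). The AppNL-G-F control arm of this test was 1 hashtag group. Without the members over 2% neutrophil transcripts it was 5.90 ± 2.53 (adjusted p = 0.571).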

How the results depend on the processing

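Of the genes named by rule, all 355 alternative values that could be tested in the comparison with MHC class II-high cells kept their direction and call. In acute colitis 106 did while 17 kept the direction only. Genes that an alternative fit did not test were not counted. The alternatives reuse the counts in which these genes were chosen, so the kept directions are not independent. For the comparison with MHC class II-high cells the rule already required 1 sign in all libraries. No test of shares passed under any alternative run, with adjusted p from 0.22 to 1. The share of cells differed between genotypes by 0.0700 points at a class II limit of 0.1%, 0.0324 at a C1q minimum of 10, 0.116 in the low set and 0.00256 without cells over 2% neutrophil markers, against -0.0105 reported, and by -0.125 to 0.0944 leaving out single groups. In the low set acute and chronic colitis differed from control by -0.155 and 0.171 points. As a share of border macrophages the genotype difference of 3.76 became -1.19 at a hashtag fold of 5, -1.30 in the high set and -0.941 without cells of mixed lineage (-1.30 to 6.20 leaving out single groups), and the acute colitis difference of -8.04 became 0.0143, 0.397 and 4.02 (-13.2 to 0.397). With no low-count filter the calls were 802 for MHC class II-high cells, 34 for Lyve1, 138 for acute colitis, 18 for chronic colitis, 3 for food allergy and 14 for genotype. Thinning gave 121 for MHC class II-high cells, and cells without mixed lineage gave 1 for Lyve1 and 10 for chronic colitis. Without cells over 2% neutrophil markers there were 11, 235, 0 and 0 for Lyve1, acute colitis, chronic colitis and food allergy. DESeq2 gave 45, 34 and 19 for acute colitis, chronic colitis and food allergy. For acute colitis, library sums gave 0, and thinning gave 59 at 10 members. Groups of at least 5 members gave 28 with the covariate, 5 without it and 75 without cells of mixed lineage. They gave 109 in the high set and 115 without AppNL-G-F control hashtag 4. Without the covariate chronic colitis had 2 and food allergy 0 calls, chronic colitis had 8 in the high set, and library sums gave 0 for both, or 38, 9 and 8 (chronic colitis, food allergy, genotype) without cells of mixed lineage. Leaving out single libraries or groups gave 1 to 9 calls for Lyve1, 25 to 220 for acute colitis, 0 to 12 for chronic colitis, 0 to 3 for food allergy and 0 to 2 for genotype. The cause was not tested. The comparisons with microglia and between immediate-early sets, the fits at 10 members for chronic colitis, food allergy and genotype, at least 20 members per sum, acute colitis without cells of mixed lineage at 10 members or without AppNL-G-F control hashtag 7, and thinned counts at 5 members could not be fitted. Depth limits calls: 62 members had under 1500 UMIs. The comparison with MHC class II-high cells was paired by library, and with hashtag groups as blocks it gave 291 calls against 260. Between conditions no paired analysis was possible because the labels give no replicate numbers shared between groups.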
